A study of Mus musculus with 6 samples.

Results

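The HOXA cluster is a run of homeobox genes on mouse chromosome 6, and 9 of its genes, Hoxa2, Hoxa3, Hoxa4, Hoxa5, Hoxa6, Hoxa7, Hoxa9, Hoxa10 and Hoxa11, are described here, out of 23337 genes in the count table. They were found by gene symbol, and all 9 were present and passed the filter on low counts that left 13272 genes for testing. The RNA came from leukaemia initiating cells (LICs), sorted cells able to start the disease again, of adult mice (replicates 1, 2 and 4) and of neonatal mice (replicates 4, 7 and 8). As source the labels name stem and progenitor cells of the blood. They give only the words adult and neonatal for age and name no leukaemia driver, strain, sex, treatment or sort gate, so what both groups share is known only as far as these words go. The labels do not say whether each of the 6 libraries is a different animal, and p-values therefore measure only the spread between libraries, which may be technical.

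HOX proteins are transcription factors that bind DNA through a homeodomain, usually together with PBX and MEIS partners. Genes of a cluster are laid out in the order in which they act along the body axis, with low numbers at the anterior end and high numbers at the posterior end. In blood, Hoxa9 and its neighbours are active in stem and early progenitor cells and are switched down as cells mature, and acute leukaemias driven by MLL fusions keep them on.

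The microRNA gene Mir196b lies between Hoxa9 and Hoxa10 and is part of the cluster. Its mature product and its possible pairing sites in HOXA transcripts are shown because they tie cluster members to each other by sequence. In the RefSeq sequence (GRCm38.p6, the assembly also called mm10, chr6:52230129-52230150, minus strand) the seed, bases 2 to 8, is in capitals.
mmu-miR-196b-5p: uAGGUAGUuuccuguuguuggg
The reverse complement of the seed, ACTACCT, was searched in the longest 3′ untranslated region (UTR) that the GENCODE M21 annotation gives for each member, on the strand of the transcript. It was present in 4 of the 9 members, and 2.26% of 11926 genes with a 3′ UTR of 77 to 1309 bases, the range of the members, held it. The 77 bases are those of Hoxa6, and the other members have 469 to 1309 bases, so this share is not matched to their lengths. Hoxa7 held ACTACCT at 4 places in 1219 bases, while Hoxa4, Hoxa5 and Hoxa9 held it at 1 place each. The matches follow with the match in capitals, all on the minus strand of mm10.
Hoxa4, chr6:52190066-52190088: aagcactggccatcgACTACCTt
Hoxa5, chr6:52202118-52202140: gatatttttattcaaACTACCTa
Hoxa7 site A, chr6:52215400-52215422: aggcacagccaaaatACTACCTa
Hoxa7 site B, chr6:52215363-52215385: gagaggcactcccaaACTACCTa
Hoxa7 site C, chr6:52215231-52215253: caaaccatgatcaatACTACCTa
Hoxa7 site D, chr6:52215210-52215232: tactactagccctaaACTACCTa
Hoxa9, chr6:52223900-52223922: gcaaaaggaaagaaaACTACCTt
Sites C and D of Hoxa7 fall in the row of the noncoding RNA Mira. The exons by which the authors counted Hoxa7 and Hoxa9 ended before these places, whereas the sites of Hoxa4 and Hoxa5 fell inside the counted exons. A match of letters is not a measured site of action, and mature microRNAs were not measured by these polyA-selected libraries.

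The adult libraries held 60113466 to 65183188 counts. Of the neonatal libraries, replicate 4 held 3932833, and replicates 7 and 8 held 64712241 and 66132051, so that the 5 other libraries were on average 16.2 times as deep as neonatal replicate 4. Levels are in CPM, counts scaled to a common library size after TMM scaling. For a gene with no count the limit is 3 counts, or 0.897 CPM in neonatal replicate 4 and 0.0425 to 0.0503 CPM elsewhere, which covers counting error only. Progenitor markers were present in all libraries, with Kit at 50.1 to 85.8 CPM in the adult group and 23.6 to 264 CPM in the neonatal group. The 10 maturing neutrophil markers found summed to 1846 to 14887 CPM in the adult group and 79.6 to 292 CPM in the neonatal group, with none at 0 in every library. Among them S100a8, S100a9, Ngp, Camp and Ltf did not overlap between the groups, whereas Lcn2, Cxcr2, Mmp8, Mmp9 and Retnlg did. Cxcr2 and Mmp8 were highest in neonatal replicate 4, at 42.4 and 20.6 CPM. Cdh5, Kdr and Emcn of the 8 endothelial markers and Col3a1, Lum, Dcn and Twist1 of the 11 mesenchymal markers had 0 counts in all 6 libraries. The highest endothelial marker in each library was Pecam1, and the endothelial sum was 31.9 to 69.6 CPM over adult libraries and 83.4 to 124 CPM over neonatal libraries. The mesenchymal sum was 12.0 to 17.5 CPM over adult libraries and 20.9 to 111 CPM over neonatal libraries, and Pdgfrb alone was at 4.16 to 13.3 CPM over adult libraries and 13.5 to 110 CPM over neonatal libraries. The B cell markers Ms4a1 and Pax5 and the T cell markers Cd3e and Cd3g had 0 counts in every library, whereas Cd79b of the B cell list was at 28.3 to 68.5 CPM over adult libraries and 70.7 to 146 CPM over neonatal libraries, without overlap. The 8 B cell markers summed to 38.8 to 70.2 CPM over adult libraries and 73.3 to 151 CPM over neonatal libraries. Of the 8 T and NK cell markers, Cd3d, Lck and Klrb1c were counted in each library. That list summed to 1.22 to 3.29 CPM over adult libraries and 1.71 to 2.39 CPM over neonatal libraries. The 8 red cell markers found summed to 3.10 to 9.57 CPM over adult libraries and 1.27 to 6.28 CPM over neonatal libraries. Klf1, Alas2 and the globin gene Hbb-bs, listed as Beta-s, were counted in each. Hbb-bs was at 6.73 CPM in adult replicate 2 and 3.59 CPM in neonatal replicate 4, the libraries with the highest sum in their groups. The part of other cells in the results was not tested. Bulk RNA cannot tell fewer cells that express a gene from less RNA of it per cell.

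Adult and neonatal LICs expressed the same stretch of the cluster. The 3 neighbours Hoxa7, Hoxa9 and Hoxa10 stood far above the genes on either side of them in every library. Per kilobase of counted exon (CPM per kb, the scale on which genes can be compared), Hoxa9 averaged 56.6 ± 17.3 in adult and 36.6 ± 3.46 in neonatal LICs, Hoxa10 averaged 45.8 ± 9.48 in adult and 31.4 ± 6.91 in neonatal LICs, and Hoxa7 averaged 28.1 ± 7.17 in adult and 30.7 ± 7.31 in neonatal LICs (SD, n = 3 each). Hoxa5 followed at 6.67 ± 0.269 CPM per kb in adult and 3.71 ± 1.42 in neonatal LICs (SD, n = 3 each). The remaining 5 members averaged at most 2.52 CPM per kb in adult and 1.89 in neonatal LICs, both reached by Hoxa6. In adult LICs the order of the means was Hoxa9, Hoxa10, Hoxa7, Hoxa5, Hoxa6, Hoxa3, Hoxa4, Hoxa11 and Hoxa2. Hoxa9 and Hoxa10, Hoxa4 and Hoxa11, and Hoxa11 and Hoxa2 were neighbours in that order whose means differed by less than the larger of their SDs. In neonatal LICs the order was the same, and only the steps between Hoxa7 and Hoxa5 and between Hoxa5 and Hoxa6 were larger than that. Hoxa9 stood above 82.4 to 89.8% of the genes with a count in each adult library and above 76.1 to 82.0% in each neonatal library on the scale per kb. The 76.1% is that of the shallow neonatal replicate 4, and neonatal replicates 7 and 8 were at 80.9 and 82.0%. Which genes have a count depends on depth, so these ranks are not matched between libraries. The counted exons of Hoxa7 and Hoxa9 end before the 3′ ends that GENCODE gives. Their levels per kb therefore rest on part of these transcripts, and the effect on the order was not tested.

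**Figure D1:**
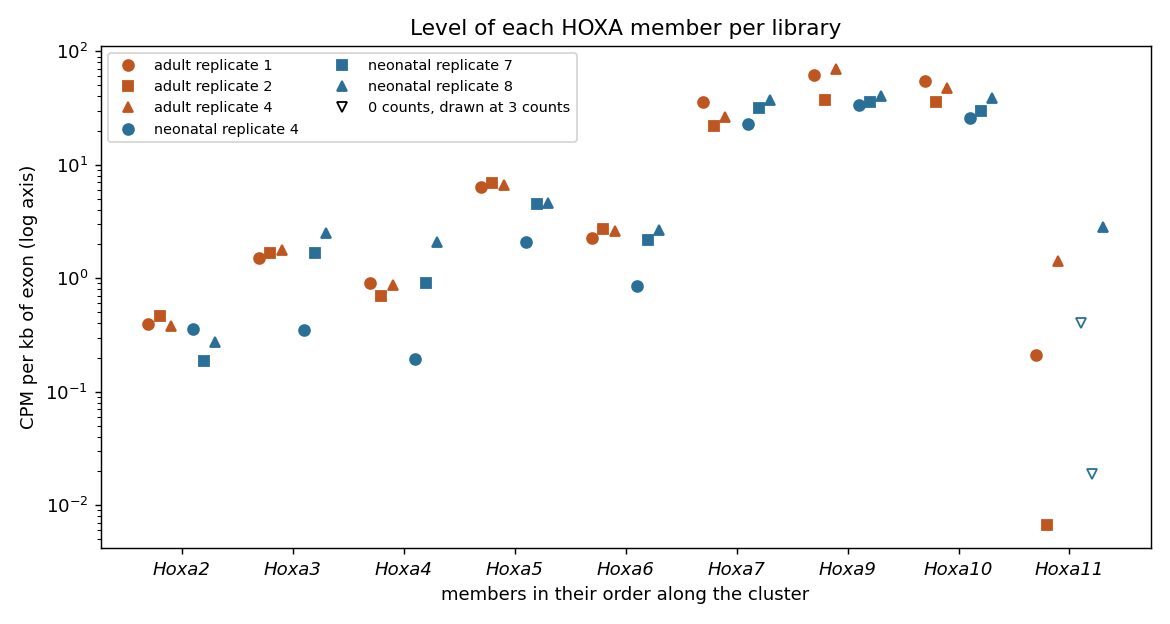
CPM per kb of exon (log axis) of the 9 members in their order along the cluster, with adult libraries in orange left of neonatal libraries in blue. The points of Hoxa7, Hoxa9 and Hoxa10 lie above those of all other members in all 6 libraries, and open triangles mark 0 counts drawn at the limit of 3 counts.

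The question of the series is how LICs of adult leukaemia differ from those of neonatal leukaemia, and for the HOXA genes no difference passed the test. Of the 9 members, 0 passed edgeR's quasi-likelihood test with Benjamini-Hochberg adjustment over all genes, and 0 had an unadjusted p under 0.05. Over all genes tested, 7 of 13272 passed, or 0.0527%, and 1585, or 11.9%, had an unadjusted p under 0.05. With chromosomes X and Y left out, 0 of 12848 genes passed, and the labels do not give the sex of the mice. DESeq2 called 759 of all genes tested, or 5.72%, and limma voom 7, and both called 0 members. Without the shallow neonatal replicate 4, edgeR called 828 of 13856 genes, or 5.98%, and still 0 members. The log2 fold change, adult minus neonatal, was positive for 6 members and negative for 3, with a median of 0.35, beside a median of -0.05 over all genes tested. Without neonatal replicate 4 the split was 5 against 4 and the median of the members 0.06, beside 0.05 over all genes. A p above the threshold does not show equal levels, and the interval given with each gene shows how large a difference these libraries leave possible.

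**Figure D2:**
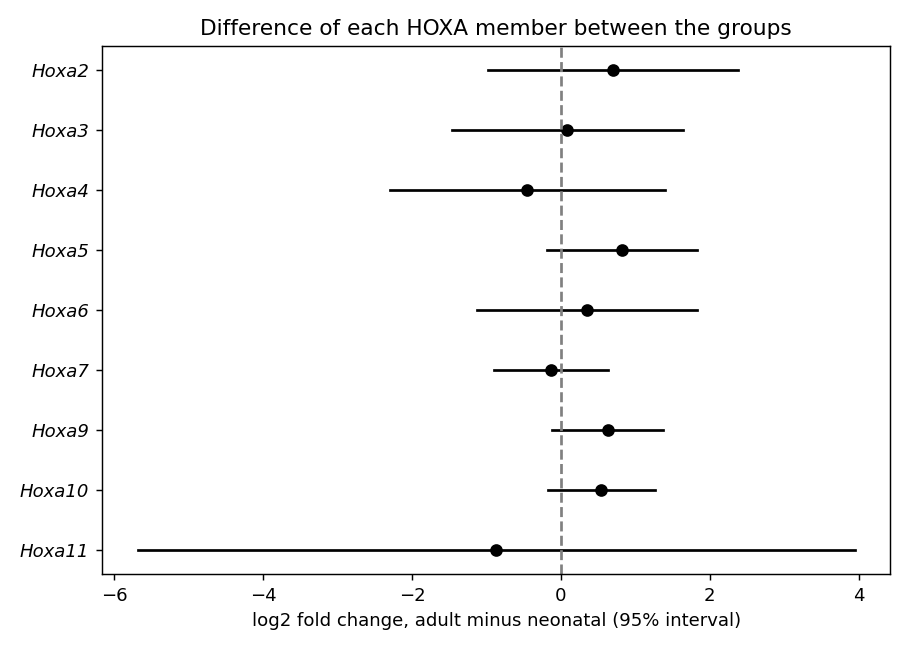
Log2 fold change of each member, adult minus neonatal, with edgeR's approximate 95% interval from 3 libraries per group. All 9 intervals cross 0, and they are narrowest for Hoxa10, Hoxa9 and Hoxa7 and widest for Hoxa11.

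Hoxa9 (chr6:52224054-52227370, minus strand, as are all members) encodes the homeodomain protein most often tied to acute myeloid leukaemia. It had 141.9, 84.4 and 159.4 CPM in adult replicates 1, 2 and 4, against 76.2, 81.6 and 91.7 CPM in neonatal replicates 4, 7 and 8. Adult replicates 1 and 4 were above every neonatal library, while adult replicate 2 lay inside the neonatal range, so the groups overlapped. The log2 fold change was 0.63 ± 0.32 (SE), with a 95% interval from -0.12 to 1.38 and an edgeR adjusted p of 0.508. Without adult replicate 2 the log2 fold change was 0.86, and without adult replicate 4 it was 0.44.

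Hoxa10 (chr6:52231197-52240854), whose protein acts in myeloid and megakaryocyte progenitors, had 171, 112 and 148 CPM in adult replicates 1, 2 and 4, against 80.4, 92.8 and 123 CPM in neonatal replicates 4, 7 and 8. Neonatal replicate 8 was above adult replicate 2, and the other neonatal libraries were below all adult libraries. The log2 fold change was 0.54 ± 0.31 (SE), with a 95% interval from -0.17 to 1.26 and an edgeR adjusted p of 0.550. Adult replicate 2, the adult library lowest in Hoxa7, Hoxa9 and Hoxa10, also had the highest sum of maturing neutrophil markers, at 14887 CPM against 5974 and 1846 CPM in adult replicates 1 and 4. Between adult replicates 1 and 4 the order varied by gene. Replicate 1, with more of these markers, had more Hoxa7 (70.0 against 51.9 CPM) and Hoxa10 (171 against 148 CPM). It had less Hoxa9 (141.9 against 159.4 CPM). The part of maturing neutrophils in the lower values of adult replicate 2 was not tested.

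Hoxa7 (chr6:52215624-52218573), a homeobox gene of the same active stretch, had 70.0, 42.5 and 51.9 CPM in adult replicates 1, 2 and 4, against 44.8, 61.5 and 73.2 CPM in neonatal replicates 4, 7 and 8. The groups covered nearly the same range. The log2 fold change was -0.13 ± 0.33 (SE), with a 95% interval from -0.90 to 0.64 and an edgeR adjusted p of 0.927. The direction of this small value turned without adult replicate 2 or neonatal replicate 8 and with all libraries thinned to equal depth.

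The row of Mira, named after a noncoding RNA described between Hoxa6 and Hoxa7 in mouse embryonic stem cells, is best read beside Hoxa7. All 797 of its bases lie inside exons that GENCODE M21 gives to Hoxa7 on the same strand, so its reads and those of a longer Hoxa7 3′ end cannot be told apart. Exons of the antisense gene Hoxaas3 lie opposite 73.4% of the bases of Mira, so antisense reads may be counted there too. Mira had 14.3, 7.83 and 11.5 CPM in adult replicates 1, 2 and 4, against 14.0, 9.96 and 12.8 CPM in neonatal replicates 4, 7 and 8. Its level per kb was 49.9, 45.1 and 54.4% of that of Hoxa7 in adult replicates 1, 2 and 4, and 76.7, 39.7 and 42.6% in neonatal replicates 4, 7 and 8. The adult values lay between those of the neonatal libraries, above replicates 7 and 8 and below the shallow replicate 4. The row of Mir196b, a hairpin of 85 bases, had 3.45, 1.74 and 1.06 CPM in adult replicates 1, 2 and 4, against 0.897, 0.977 and 1.26 CPM in neonatal replicates 4, 7 and 8 (log2 fold change 0.97 ± 0.69, SE, edgeR adjusted p = 0.656). These are reads of longer polyadenylated transcripts across the hairpin and not of the mature microRNA.

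The part of HOXA expression taken by Hoxa7 was lower in each adult library than in any neonatal library, which is a description without a test. Its share of the summed level per kb of the 9 members was 21.8, 20.3 and 16.9% in adult replicates 1, 2 and 4, against 26.7, 29.6 and 28.5% in neonatal replicates 4, 7 and 8, and the groups did not overlap. The log2 ratio of Hoxa9 to Hoxa7 per kb was 0.80, 0.77 and 1.40 in adult and 0.55, 0.19 and 0.10 in neonatal LICs, and that of Hoxa10 to Hoxa7 was 0.60, 0.71 and 0.82 in adult and 0.16, -0.09 and 0.06 in neonatal LICs. Such ratios within a library do not depend on how libraries are scaled. Shares and ratios do depend on the exons counted, which for Hoxa7 and Hoxa9 leave out part of the 3′ end. Of the 28 member pairs with counts in all 6 libraries, 4 had ratios without overlap between the groups. They were Hoxa9 to Hoxa7, Hoxa10 to Hoxa7, Hoxa7 to Hoxa5 and Hoxa6 to Hoxa5. Of single genes tested, 19.6% had CPM values without overlap, which is another measure than a ratio within a library. The pairs share members, those with values given were picked after their values were seen, and no test was made of them. Hoxa7, Hoxa9 and Hoxa10 together made up 90.8 ± 2.32% of the sum in adult and 91.8 ± 3.48% in neonatal LICs (SD, n = 3 each).

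**Figure D3:**
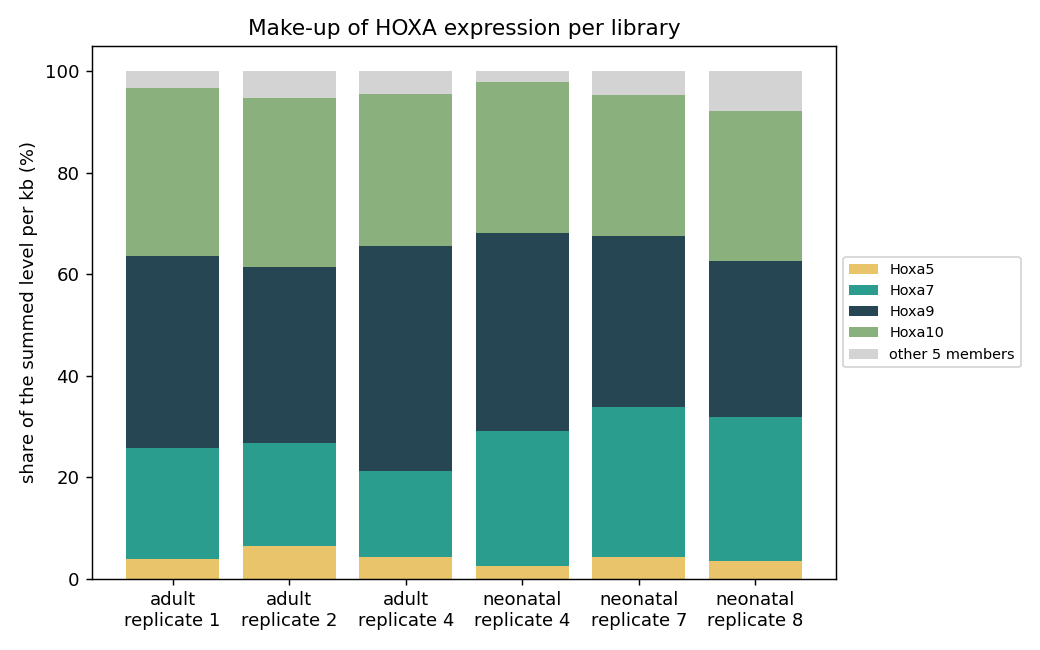
Share in percent of the summed level per kb of the 9 members that each of Hoxa5, Hoxa7, Hoxa9, Hoxa10 and the other 5 members takes, in 1 bar per library, adult libraries first. The band of Hoxa7 is 16.9 to 21.8% in the adult bars and 26.7 to 29.6% in the neonatal bars.

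Among the lower members of the central cluster, Hoxa5 had no overlap between the groups. Hoxa5 (chr6:52201754-52204587), a patterning gene that also acts in myeloid progenitors, had 12.0, 13.0 and 12.5 CPM in adult replicates 1, 2 and 4, against 3.89, 8.40 and 8.61 CPM in neonatal replicates 4, 7 and 8. Every adult library was above every neonatal library. Poisson intervals at 95% were 11.2 to 12.9 CPM for the lowest adult library and 7.92 to 9.34 CPM for the highest neonatal library, and they cover counting error only. The log2 fold change was 0.82 ± 0.44 (SE), with a 95% interval from -0.19 to 1.83, and did not pass (edgeR adjusted p = 0.526). Without the shallow neonatal replicate 4 it was 0.55 (edgeR adjusted p = 0.285, range over 19 alternatives in edgeR, limma or DESeq2 0.129 to 0.842).

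Hoxa2 (chr6:52162511-52164831), the most anterior member and a regulator of hindbrain and facial development, was the other gene without overlap. It had 0.670, 0.789 and 0.639 CPM in adult replicates 1, 2 and 4, against 0.598, 0.312 and 0.459 CPM in neonatal replicates 4, 7 and 8. The log2 fold change was 0.70 ± 0.73 (SE), with a 95% interval from -0.99 to 2.38 and an edgeR adjusted p of 0.787. In neonatal replicate 4 its value rested on 2 counts, with a Poisson interval from 0.0724 to 2.16 CPM that covers the adult values. Members without overlap were thus 2 of 9, both higher in adult LICs, beside 12.0% of all genes tested with every adult library above every neonatal library, 7.67% with every adult library below, and 19.6% in either direction. Neither of them passed the test.

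Hoxa3 (chr6:52169062-52213067), Hoxa4 (chr6:52189687-52191703) and Hoxa6 (chr6:52206365-52208624), patterning genes of the neck, spine and ribs, overlapped between the groups. Hoxa3 was at 3.82 to 4.50 CPM in the adult group and 0.897 to 6.31 CPM in the neonatal group, Hoxa4 at 1.07 to 1.37 CPM in the adult group and 0.299 to 3.20 CPM in the neonatal group, and Hoxa6 at 1.59 to 1.89 CPM in the adult group and 0.598 to 1.85 CPM in the neonatal group. In each of these genes the lowest neonatal value was that of replicate 4, from 3, 1 and 2 counts. The highest neonatal value was that of replicate 8 in each. Their log2 fold changes were 0.09 ± 0.67, -0.45 ± 0.80 and 0.35 ± 0.64 (SE), and their edgeR adjusted p-values 0.976, 0.884 and 0.891. Without neonatal replicate 4 the value of Hoxa3 turned to -0.34 and that of Hoxa6 fell to 0.06, while that of Hoxa4 was -0.87. Without neonatal replicate 8 the value of Hoxa4 turned to 0.43. Exons that GENCODE places on the opposite strand cover 24.1% of the counted bases of Hoxa3 and 15.6% of those of Hoxa4, and the kit keeps no strand, so reads of antisense RNA may be counted there.

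Hoxa11 (chr6:52242106-52245767), the most posterior member and a gene of limb and uterus development, ranged widely between libraries within both groups. It had 28, 1 and 206 counts in adult replicates 1, 2 and 4, and 0, 0 and 430 counts in neonatal replicates 4, 7 and 8. In CPM this is 0.469, 0.0149 and 3.21 in the adult and 0, 0 and 6.37 in the neonatal libraries. It was therefore well counted in adult replicate 4 and neonatal replicate 8 and nearly or fully uncounted in adult replicate 2 and neonatal replicate 7, which were sequenced as deeply. In the shallow neonatal replicate 4 the 95% Poisson interval of its 0 counts reached 1.10 CPM, below the values of adult replicate 4 and neonatal replicate 8. Its log2 fold change was -0.87 ± 2.08 (SE), with an adjusted p of 0.922 in edgeR and a 95% interval from -5.69 to 3.95, and its direction turned without neonatal replicate 8. The antisense gene Hoxa11as (chr6:52245243-52249769) had 36, 0 and 57 counts in adult replicates 1, 2 and 4, and 1, 0 and 178 counts in neonatal replicates 4, 7 and 8. It shares 525 bases with Hoxa11, 23.4% of the counted bases of Hoxa11, so the strand of these reads is uncertain.

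Hoxa13, the last gene of the cluster, had 1 count in adult replicate 1, 1 in neonatal replicate 8 and 0 in the other 4 libraries. In all 6 libraries Hoxa11 was far below Hoxa10, its neighbour toward the middle of the cluster.

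**Figure D4:**
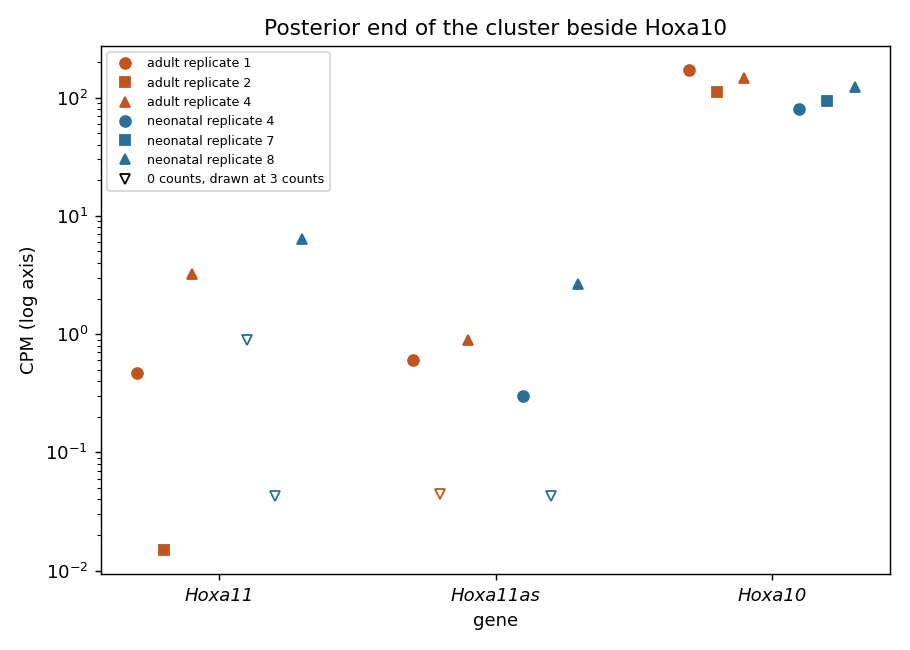
CPM (log axis) of Hoxa11 and the antisense gene Hoxa11as, with Hoxa10 for scale, adult libraries in orange left of neonatal libraries in blue. Adult replicate 4 and neonatal replicate 8 (triangles) are the highest of their groups for both, while Hoxa10 varies less, and open triangles mark 0 counts drawn at the limit of 3 counts.

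The summed level of the members was 403, 260 and 383 CPM in adult replicates 1, 2 and 4, and 208, 252 and 314 CPM in neonatal replicates 4, 7 and 8. The groups overlapped, with a mean of 349 ± 77.5 CPM in the adult group and 258 ± 53.6 CPM in the neonatal group (SD, n = 3 each).

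Promoter windows of 300 bases around a start, from RefSeq (GRCm38.p6), were found for 8 of the 9 members, with a pair of windows for Hoxa10. They are described because the starts of the members differ in base composition. The windows held 4 CG pairs in Hoxa9, 9 in Hoxa7 and Hoxa2, 12 and 21 in the windows of Hoxa10, 15 in Hoxa11, 20 in Hoxa3, 26 in Hoxa6 and 29 in Hoxa5, beside a median of 7 over 32851 windows of the same length. Hoxa9 had the fewest CG pairs, with 31.4% of all windows below it, and Hoxa5 the most, with 87.1% below it. A relation of CG pairs to level was not tested. The windows of Hoxa9 (chr6:52227321-52227620) and of the start of Hoxa10 nearer to it (chr6:52234890-52235189), both on the minus strand, follow with CG pairs in capitals.
Hoxa9: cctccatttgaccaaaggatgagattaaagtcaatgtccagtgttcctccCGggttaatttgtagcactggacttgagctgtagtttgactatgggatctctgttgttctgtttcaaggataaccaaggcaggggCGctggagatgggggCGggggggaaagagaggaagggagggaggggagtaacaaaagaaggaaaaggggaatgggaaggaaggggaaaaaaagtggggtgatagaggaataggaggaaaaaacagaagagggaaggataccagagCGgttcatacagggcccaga
Hoxa10: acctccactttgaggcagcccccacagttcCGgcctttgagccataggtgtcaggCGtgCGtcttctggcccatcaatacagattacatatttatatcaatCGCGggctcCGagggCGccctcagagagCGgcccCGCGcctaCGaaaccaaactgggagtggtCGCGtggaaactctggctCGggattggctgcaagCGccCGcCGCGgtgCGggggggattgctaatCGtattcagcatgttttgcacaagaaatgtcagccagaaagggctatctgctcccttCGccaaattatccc
Searches on both strands used TATAAA, the letters of the TATA box, and TGACAG, the core bound by MEIS proteins. They also used TGATNNAT, bound by PBX with HOX proteins, and TTTATNG, read by posterior HOX proteins. No overlaps between motifs were removed. TGACAG was present in the windows of Hoxa2 and Hoxa3, TGATNNAT in that of Hoxa2 and TATAAA in the nearer window of Hoxa10. Over all windows they were present in 19.2%, 8.85% and 13.6%. The TATAAA match of Hoxa10 lies at position -160 from the start and reads on the strand opposite to the gene. Whether it acts as a TATA box was not tested. TTTATNG was in none of the member windows and in 10.9% of all windows, which says only that these letters are not in these windows.

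The genes around the cluster did not pass the test either. Of 7 tested flanking genes 5 had a positive log2 fold change, and edgeR called 0, with 1 at an unadjusted p under 0.05, while DESeq2 called 1 and limma voom 0. Skap2, an adaptor protein gene beyond the anterior end of the cluster, had 405, 276 and 423 CPM in adult replicates 1, 2 and 4, against 278, 168 and 284 CPM in neonatal replicates 4, 7 and 8, and neonatal replicates 4 and 8 lay just above adult replicate 2 (log2 fold change 0.60 ± 0.34, SE, edgeR adjusted p = 0.549). Evx1, the homeobox gene beyond Hoxa13, had 0 counts in every library. Hibadh, a gene of valine breakdown farther out, had 76.7 to 94.3 CPM in the adult group and 77.9 to 148 CPM in the neonatal group. Jazf1, a zinc finger gene beyond it, had 3.20, 5.70 and 3.07 CPM in adult replicates 1, 2 and 4, against 1.20, 0.864 and 0.578 CPM in neonatal replicates 4, 7 and 8, without overlap (log2 fold change 2.26 ± 0.63, SE, edgeR adjusted p = 0.211). DESeq2 called Jazf1 on the same libraries (adjusted p = 0.00699, range over 19 alternatives 0.00122 to 0.537). The antisense gene Hoxaas3, listed under its older name 2700086A05Rik, had 4.44, 2.92 and 3.13 CPM in the adult group and 0.897, 1.42 and 2.02 CPM in the neonatal group, again without overlap and without passing (log2 fold change 1.22 ± 0.58, SE, edgeR adjusted p = 0.467).

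Of the other 3 HOX clusters, only Hoxb13 and Hoxb4 passed the filter on low counts. None of the 9 HOXC and 9 HOXD genes passed the filter, and 4 of the HOXC and 8 of the HOXD genes had 0 counts in every library. Of 10 HOXB genes 2 were tested, and 4 had 0 counts in every library. Hoxb13 (chr11:96194361-96196599), a posterior gene known from prostate, was at 1.45 to 2.34 CPM per kb in adult and 2.50 to 6.83 CPM per kb in neonatal LICs, without overlap (log2 fold change -1.24 ± 0.57, SE, edgeR adjusted p = 0.453). DESeq2 without neonatal replicate 4 called Hoxb13 (adjusted p = 0.0321, range over 19 alternatives 0.0321 to 0.797). Hoxb4, a gene that expands blood stem cells when overexpressed, was at 0.164 to 0.424 CPM per kb in adult and 0.116 to 0.502 CPM per kb in neonatal LICs. Both were below Hoxa7, Hoxa9 and Hoxa10 in every library on this scale, while the neonatal mean of Hoxb13, 4.27 ± 2.27 CPM per kb, was above the 3.71 ± 1.42 of Hoxa5 (SD, n = 3 each), a difference within the spread.

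HOX proteins act with cofactors of the PBX, MEIS and PKNOX families, and of 9 listed cofactor genes 6 were tested. EdgeR called 0 of them and had 3 at an unadjusted p under 0.05, DESeq2 called 3, limma voom 0, and edgeR without neonatal replicate 4 called 1. Over all genes tested the shares were 11.9% at an unadjusted p under 0.05 and 5.72% called by DESeq2. Meis1, the main partner of Hoxa9 in leukaemia, had 97.8, 85.1 and 80.8 CPM in adult replicates 1, 2 and 4, against 38.9, 94.0 and 157 CPM in neonatal replicates 4, 7 and 8, and the adult values lay inside the neonatal range (log2 fold change -0.14 ± 0.48, SE, edgeR adjusted p = 0.943). Pbx3, a partner of Hoxa9 in leukaemia, had 14.5, 51.3 and 14.0 CPM in the adult group and 43.0, 144 and 299 CPM in the neonatal group, with adult replicate 2 above neonatal replicate 4. Its log2 fold change was -2.61 ± 0.80 (SE, edgeR adjusted p = 0.248, DESeq2 adjusted p = 0.0144, range over 19 alternatives 1.4e-05 to 0.580).

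Pbx4, another PBX gene, had 2.87, 3.48 and 5.22 CPM in the adult group and 6.28, 12.2 and 15.7 CPM in the neonatal group, without overlap (log2 fold change -1.57 ± 0.51, SE, edgeR adjusted p = 0.281, range over 19 alternatives 0.000321 to 0.649). Pknox1, whose protein competes with MEIS for PBX, had 103.7, 105.3 and 104.9 CPM in the adult group and 35.6, 63.2 and 52.0 CPM in the neonatal group, without overlap (log2 fold change 1.05 ± 0.31, SE, edgeR adjusted p = 0.225). EdgeR called Pknox1 higher in adult LICs when neonatal replicate 4 was left out, although the log2 fold change was then smaller (0.85, edgeR adjusted p = 0.0479, range over 19 alternatives 0.000184 to 0.513). Pbx2 and Meis3 overlapped between the groups, with edgeR adjusted p-values of 0.977 and 0.916. Whether the cofactors differ more than the HOXA genes was not tested.

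**Figure D5:**
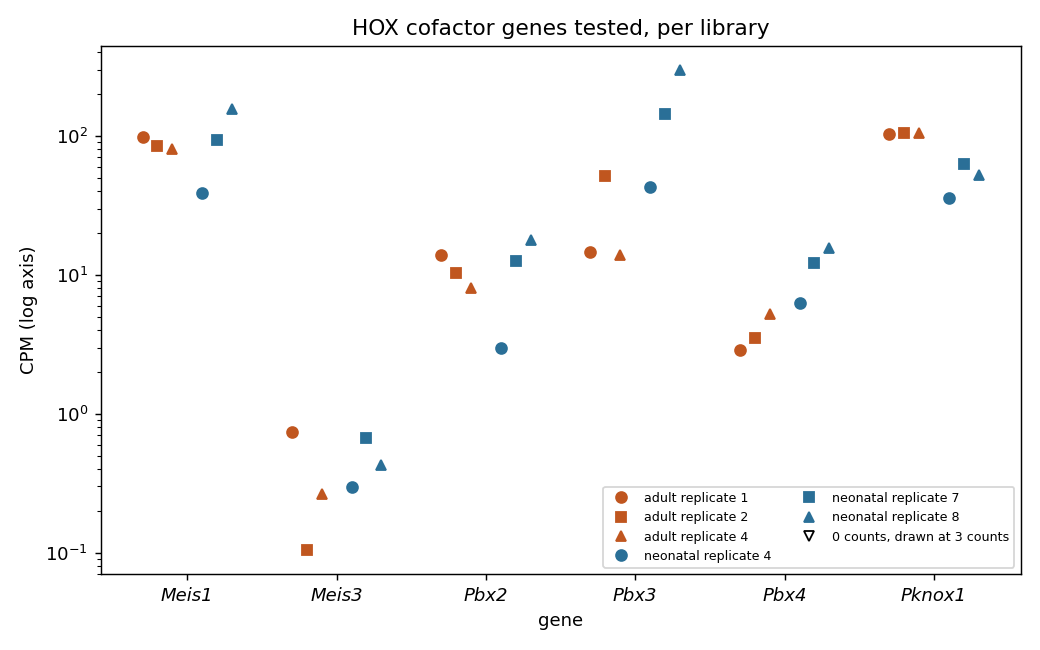
CPM (log axis) of the 6 tested HOX cofactor genes, adult libraries in orange left of neonatal libraries in blue, 1 point per library. The adult points of Pknox1 lie between 103.7 and 105.3 CPM and above all neonatal points, those of Pbx4 lie below all neonatal points, and those of Meis1 lie inside the neonatal range.

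No regulator known to keep the HOXA cluster on or off passed edgeR's test over the 6 libraries. Of 18 tested activating regulators, among them the MLL gene Kmt2a and its partners, 9 had a positive and 9 a negative log2 fold change, and edgeR called 0, with 1 at an unadjusted p under 0.05, and DESeq2 called 0, with 2 at that level. Without neonatal replicate 4 edgeR called 1 higher and 1 lower. The 3 with the smallest p were Nsd1, Men1 and Aff4. Nsd1, a histone H3 methyltransferase gene, averaged 93.5 CPM in the adult group and 61.1 CPM in the neonatal group (log2 fold change 0.61 ± 0.26, SE, edgeR adjusted p = 0.407). Men1, the gene of menin, which tethers MLL to chromatin, averaged 23.4 CPM in the adult group and 57.0 CPM in the neonatal group, with overlap (log2 fold change -1.30 ± 0.64, SE, edgeR adjusted p = 0.489, range over 19 alternatives 6.76e-05 to 0.829). Men1 is the lower call made without neonatal replicate 4 (log2 fold change -1.76, edgeR adjusted p = 0.0437). Cdx1, Cdx2 and Cdx4, activators of HOX genes in the embryo, had 0 counts in every library.

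Of 18 tested repressive regulators, mostly of the Polycomb complexes, 5 had a positive and 13 a negative log2 fold change (median -0.11), and edgeR and DESeq2 called 0, both with 0 at an unadjusted p under 0.05. Phc2, Suz12 and Bmi1 had the smallest p. Phc2 averaged 45.8 CPM in the adult group and 82.0 CPM in the neonatal group, with overlap, Suz12 150 CPM in the adult group and 102 CPM in the neonatal group, with overlap, and Bmi1 52.4 CPM in the adult group and 70.0 CPM in the neonatal group, without overlap (edgeR adjusted p = 0.556, 0.602 and 0.603). Without neonatal replicate 4 edgeR called Phc2 lower in adult LICs (log2 fold change -1.26, adjusted p = 0.0361, range over 19 alternatives 4.7e-11 to 0.860). Of 13 tested genes described as targets of HOXA9 and MEIS1, 8 had a negative log2 fold change (median -0.49) and edgeR called 0, with 3 at an unadjusted p under 0.05, while DESeq2 and limma voom each called Flt3 alone. Those 3 were Flt3, Cd34 and Sox4. The transcription factor gene Sox4 had 1.88, 7.92 and 22.3 CPM in the adult group and 20.0, 44.6 and 56.3 CPM in the neonatal group, with overlap (log2 fold change -1.92 ± 0.83, SE, edgeR adjusted p = 0.416). Flt3 and Cd34, both early progenitor genes, did not overlap between the groups. Flt3 had 6.59, 19.4 and 4.58 CPM in adult replicates 1, 2 and 4, against 256, 568 and 1231 CPM in neonatal replicates 4, 7 and 8, and Cd34 had 8.16, 105.4 and 12.6 CPM in adult replicates 1, 2 and 4, against 396, 643 and 662 CPM in neonatal replicates 4, 7 and 8. They had log2 fold changes of -6.07 and -3.75 (adjusted p of edgeR 0.133 and 0.191). Over 19 alternatives the adjusted p of Flt3 lay between 7.8e-15 and 0.390 and that of Cd34 between 0.00431 and 0.425.

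The likeness of other genes to Hoxa9 and Hoxa10 was measured as the root mean square difference of log2 CPM, each gene centred on its mean over the 6 libraries, among 10537 genes with a mean of at least 1 CPM. The genes nearest to Hoxa9 were Nus1, Eif4g2, Dhx15, Nhlrc3 and Hnrpll, at 0.156 to 0.177. Nearest to Hoxa10 were Rnf125, Zbtb44, Dhx15, Tfdp2 and Pkn2, at 0.0514 to 0.132. Rnf125, a ubiquitin ligase gene, had 182, 122 and 148 CPM in adult replicates 1, 2 and 4, and 80.7, 93.4 and 120.4 CPM in neonatal replicates 4, 7 and 8, almost the values of Hoxa10. Hoxa9 and Hoxa10 differed from each other by 0.186, a distance at which Hoxa10 would rank 10 among the genes nearest to Hoxa9 and Hoxa9 would rank 48 among those nearest to Hoxa10. Hoxa7, next to Hoxa9 on the chromosome, differed from it by 0.431 and would rank 1278. These ranks describe 6 libraries and carry no test.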

How the data were processed

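Polyadenylated RNA of 6 LIC libraries was sequenced single-end, and the labels' protocols name a NEBNext Ultra kit, which keeps no strand. What the authors deposited is a table of raw counts, made with featureCounts 1.5.1 (per the file headers, primary alignments, UCSC genes of mm10). Trimmomatic, Bowtie, TopHat and DESeq2 are named per the submitters' processing notes, with no role or version. The exon lengths used per kb were those the authors deposited in the same table.

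Adult minus neonatal was fitted in R 4.3.3 with edgeR 4.0.16 (robust quasi-likelihood test after TMM scaling). Genes entered through filterByExpr at a minimum count of 10, and calls needed a Benjamini-Hochberg adjusted p under 0.05. The SE was the log2 fold change divided by the square root of F, and the 95% interval used it, so both are approximate. Poisson intervals were exact. Log2 CPM for likeness used a prior count of 2. Alternatives used DESeq2 1.42.0, limma 3.58.1, 3 other scalings, 2 other filters, thinning, a fit without the sex chromosomes, and omission of each library in turn.

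The members, the 19 gene lists and the rule for named genes were chosen with earlier results of these data known. The rule took all members and cluster genes, neighbouring and cofactor genes, called or highest HOXB, HOXC and HOXD genes, and the 3 smallest p of other lists. Of the listed cluster genes, Hotairm1, Hoxaas2, Hottip and Halr1 were not analysed here, and some genes that the rule or the marker lists hold are not reported here. Motif and microRNA searches were chosen after the counts were seen. GENCODE M21 uses the same assembly as mm10.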

Additional observations from a re-analysis of the deposited data

How the results depend on the processing

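No paired analysis was possible because the groups share only the replicate number 4. In 18 alternatives and 1 more added after the data were seen (DESeq2 without neonatal replicate 4), 0 of the members tested were called. All 9 were tested except with the stricter filter, which kept 8, and with thinning, which kept 5. The count over all genes was 7 and became 759 with DESeq2, 592 with the likelihood ratio test, 1056 with limma voom with quality weights, 0 without chromosomes X and Y, and 3320 with DESeq2 without neonatal replicate 4. With a library left out it ran from 1 (without adult replicate 1) to 828 (without neonatal replicate 4). Of the other listed genes 0 were called, against 16 with DESeq2, 1 with limma voom, 14 with the likelihood ratio test, 18 with quality weights, and 35 with DESeq2 without neonatal replicate 4. With a library left out this ran from 0 to 10, the highest without neonatal replicate 4. Among the members, Hoxa2, Hoxa5, Hoxa6, Hoxa9 and Hoxa10 kept a positive log2 fold change in every alternative that tested them. Hoxa3 turned to -0.061 with limma voom, -0.24 with quality weights and -0.34 with DESeq2 without neonatal replicate 4. Hoxa7 turned to 0.0091 with thinning. Hoxa11 turned to 0.71 with limma voom and 0.27 with quality weights. With a library left out, Hoxa3 ran from -0.34 to 0.62, Hoxa4 from -0.87 to 0.43, Hoxa7 from -0.37 to 0.040 and Hoxa11 from -3.22 to 9.03. Outside the members, Snx10 turned to -0.0017 with DESeq2, Cbx3 to 0.10 with limma voom, 0.28 with quality weights and 0.35 with DESeq2 without neonatal replicate 4, Hoxb4 to 0.018 with upper quartile scaling, and Pbx2 to 0.025 with thinning. With a library left out, Hoxa11as ran from -1.79 to 3.48, Mira from -0.37 to 0.080, Snx10 from -0.28 to 0.52, Cbx3 from -0.41 to 0.35, Hoxb4 from -0.32 to 0.48, Meis1 from -0.53 to 0.39, Pbx2 from -0.51 to 0.42 and Meis3 from -1.42 to 0.031. The cause was not tested. The sum and the share of Hoxa7, Hoxa9 and Hoxa10 moved by less than their SD in each setting run. Depth limits neonatal replicate 4, where Hoxa2, Hoxa3, Hoxa4 and Hoxa6 rest on 1 to 3 counts.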
